A study of Homo sapiens with 9 samples.

Results

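Wide paired footprints are pairs of SF3B1 contacts on one strand whose centres lie 35 to 45 nt apart. Whether both contacts occur on the same RNA molecule cannot be told from a list of positions. They were taken from 1 list of 96852 SF3B1 binding sites, each 5 nt wide. Site centres on one strand at most 60 nt apart were linked into clusters, and centres at most 12 nt apart into elements. A cluster was kept when it held exactly 2 elements with mean positions 35 to 45 nt apart. This rule gave 6333 wide pairs among 61570 clusters, 10.3% of them, and the pairs held 16081 sites, 16.6% of the list. The members were thus chosen by measured positions of the sites, and their spacing and number of elements are a description and not a finding.

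Sites were mapped by iCLIP. Cells are irradiated with ultraviolet light to bond proteins to the RNA they touch, the protein is pulled down with an antibody, and the bonded nucleotide is read by sequencing. The cells were K562, an established human leukaemia line. The list is named for SF3B1 in K562-wt cells, a group of 3 samples from cells with unmutated SF3B1 (wt/wt), bought from Horizon Discovery and precipitated with a monoclonal SF3B1 antibody. The other 6 samples, 2 with SF3B1 precipitated from K700E/wt cells of the same supplier and 4 with U2AF2 precipitated from wt/wt cells of ATCC, were not analysed here. The list header says that a site was reproduced by all replicates of either condition, so a site cannot be assigned to a replicate or, from the header alone, to a genotype. The list merges the replicates and holds no read number, so the depth is unknown, no spread between replicates can be given, and no test was made. Intervals below are 95% Wilson intervals, which cover counting error only, and pairs in one gene are not independent.

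The labels describe the tissue as lymphoid, while K562 is known as a chronic myeloid leukaemia line with erythroid features. Among 10 erythroid and K562 marker genes, 6 held sites, 170 in all, led by TFRC, the transferrin receptor gene, with 121. GATA1, the erythroid transcription factor gene, held 6 sites. The globin genes HBG1 and HBG2 and the erythroid factor gene KLF1 held 0. The 9 lymphoid marker genes, among them PAX5 and CD3E, held 0, which allows a share of up to 0.0031% of the 96852 sites. These counts hold only sites in clusters assigned to 1 protein-coding gene. Another 443 clusters lay in several such genes and were not counted for any of them.

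As background, SF3B1 is the largest protein of the SF3b complex in the U2 small nuclear ribonucleoprotein. This particle binds the branch point, the adenosine near the end of an intron whose attack starts splicing. Between the branch point and the AG that ends the intron lies the polypyrimidine tract, which U2AF2 binds. SF3B1 is known to touch the intron on both sides of the branch point.

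A genome sequence was not used here, but some pairs fell inside RefSeq tables of microRNA hairpins and of 300-nt windows at gene starts (GRCh38.p14). These held 28 whole wide pairs, 6 in hairpins and 22 in gene-start windows. The windows were not drawn at random from the pairs, so these sequences are examples. They are printed 5′ to 3′ in the direction of the RNA, as DNA letters, from at most 10 nt before the pair to the first AG after it. Capitals mark the 5-nt binding sites. The first set lies in microRNA hairpins inside protein-coding genes and is shown because in 4 of the 6 hairpins the first AG also ends the annotated hairpin. Hairpins whose end is the end of an intron are known as mirtrons.
MIR6878 in TARS2, chr1:150492348-150492410, plus strand: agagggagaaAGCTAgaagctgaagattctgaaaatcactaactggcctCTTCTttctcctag
MIR6742 in TRIM11, chr1:228397048-228397109, minus strand: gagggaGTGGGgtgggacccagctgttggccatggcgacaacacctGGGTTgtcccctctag
MIR6758 in MARS1, chr12:57512688-57512750, plus strand: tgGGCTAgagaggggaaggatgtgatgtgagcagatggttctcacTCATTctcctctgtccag
MIR6824 in SLC26A6, chr3:48633636-48633698, minus strand: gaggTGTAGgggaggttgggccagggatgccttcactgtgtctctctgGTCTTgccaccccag
In these 4 hairpins the AG ended 9 to 13 nt after the downstream site.

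The second set holds 7 of the 22 pairs in gene-start windows. They were picked to show a similar order of features outside hairpins, so they do not show how often it occurs.
EIF3I, chr1:32222467-32222537, plus strand: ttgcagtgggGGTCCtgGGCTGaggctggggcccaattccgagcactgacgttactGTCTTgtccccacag
CDC14A, chr1:100424157-100424221, plus strand: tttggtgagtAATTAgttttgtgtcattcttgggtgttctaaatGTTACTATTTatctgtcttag
ADK, chr10:74589213-74589281, plus strand: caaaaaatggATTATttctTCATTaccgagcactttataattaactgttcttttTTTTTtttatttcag
ELF1, chr13:40982283-40982343, minus strand: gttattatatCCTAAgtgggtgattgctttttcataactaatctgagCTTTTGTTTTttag
TIMM50, chr19:39483059-39483134, plus strand: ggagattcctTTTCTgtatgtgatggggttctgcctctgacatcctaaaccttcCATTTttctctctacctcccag
PTTG1IP, chr21:44865448-44865518, minus strand: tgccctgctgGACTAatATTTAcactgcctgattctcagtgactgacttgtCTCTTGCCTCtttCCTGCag
MYNN, chr3:169774197-169774264, plus strand: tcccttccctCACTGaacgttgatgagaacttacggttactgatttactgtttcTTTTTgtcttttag
EIF3I encodes a subunit of a translation initiation factor, CDC14A a phosphatase, ADK adenosine kinase, ELF1 an ETS-family transcription factor, TIMM50 a subunit of the mitochondrial import channel and MYNN a zinc finger protein. In each of these 7 sequences pyrimidines made up at least 70% of the bases in the downstream sites, and in all but TIMM50 at most 70% in the upstream sites. Some pairs not shown ran the other way. In CREBZF, HOXB2 and ZDHHC20 the pyrimidine share was 100% upstream and 80% downstream, and in PAXBP1 100% and 70%.

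The downstream element was the richer in uridine. In the 28 wide pairs 65.8% of its 190 bases were T (58.8% to 72.2%) against 41.8% of 165 bases in the upstream element (34.6% to 49.4%). Bases were pooled over pairs and counted as independent, which neighbouring bases are not, so the intervals for base shares are likely too narrow. Elements with more sites also weigh more. The T share was higher downstream in 22 of the 28 pairs, lower in 4 and equal in 2. Pyrimidines made up 85.8% of the downstream and 63.6% of the upstream element. In stretches of all 35116 gene-start windows on both strands T made up 20.8% and pyrimidines 50.3%. Counting both strands brings pyrimidines close to an even split with purines, and T close to A, almost whatever the sequence. These background shares therefore say little about the RNA strand. The stretches also lie before the annotated gene start and are not matched to the pairs. Single sites in the same tables had 58.3% T (55.2% to 61.2%) and 82.5% pyrimidines, so the downstream element was close to single sites and the upstream element lay below them. Some of these single sites, as in RPL22, RPS27 and RPS24, were all pyrimidine and lay at the annotated start of a gene. They were not left out, so single sites are not a like-for-like comparison. In narrow pairs T made up 60.9% of the downstream and 54.8% of the upstream element. Ultraviolet crosslinking is known to favour uridine, and its part in these shares was not tested.

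An AG followed the downstream element of most wide pairs closely. Of the 27 wide pairs with an AG inside the window, 24 had it within 15 nt (88.9%, 71.9% to 96.1%), at a median of 10 nt with quartiles of 8.5 and 12. The exception farthest out, at 41 nt, was the pair in CREBZF. Single sites in the same tables had an AG within 15 nt in 129 of 193 cases (66.8%, 59.9% to 73.1%), and stretches of all windows in 63.5%. The intervals of wide pairs and single sites overlap slightly. Within 10 nt the shares were 59.3% of wide pairs (40.7% to 75.5%), 47.1% of narrow pairs, 45.6% of single sites and 48.5% of windows. Within 20 nt they were 96.3% of wide pairs, 94.1% of narrow pairs and 78.8% of single sites. The medians, 12 nt for single sites and 11 nt for both narrow pairs and all windows, were thus close to that of the wide pairs. The bases between the downstream element and the AG were pyrimidines for a median share of 83.3% in wide pairs and 66.7% in single sites. In narrow pairs the median share was 77.8% (quartiles 71.4% and 88.2%), and the median of the wide pairs lay between these quartiles.

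A branch-point-like motif often stood between the elements. The strand of the RNA was searched for a C or T, then T, any base, A, and last a C or T, which includes the forms CTNAC and TTNAT with N for any base. At least 1 match lay between the elements in 18 of 28 wide pairs (64.3%, 45.8% to 79.3%) and at nearly the same share, 11 of 17, in narrow pairs (64.7%, 41.3% to 82.7%). The narrow pairs had a median of only 24 nt between the elements, so a shorter stretch was searched. Stretches of 32 nt, the median length between the elements of wide pairs, held a match in 25.9% of all gene-start windows, both strands counted. These stretches hold only 20.8% T, which the motif needs, and are not matched to the pairs, so the difference does not measure an enrichment. The A of the last match lay a median of 8 nt before the downstream element. The A of the first match lay a median of 24 nt after the upstream element. Measured to the AG, the A of the last match lay at a median of 22 nt, with quartiles of 21 and 25. Among the sequences above the last match between the elements reads CTAAT in the ELF1 pair. It reads CTGAC in the EIF3I and PTTG1IP pairs. TRIM11 and CDC14A had no match between the elements. A match is a description of letters and does not show that a branch point is used.

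**Figure D1:**
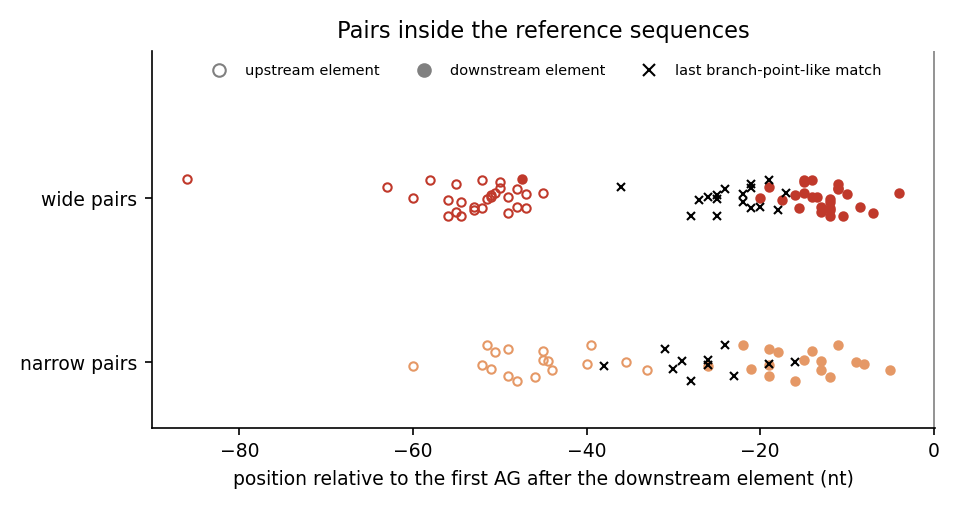
Position of each element (circles; open upstream, filled downstream) and of the last branch-point-like match (crosses), in nt before the first AG, for the 27 wide and 17 narrow pairs with an AG inside the reference sequences. Each mark is 1 pair, jittered vertically; upstream elements of wide pairs sit at a median of 52 nt before the AG and those of narrow pairs at 46 nt, while downstream elements sit at 13 and 15 nt.

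Narrow pairs, with elements 25 to under 35 nt apart, were the closest class for comparison. There were 4311 of them, and 17 lay in the same sequence tables. Their upstream elements had a median midpoint 46 nt before the AG (quartiles 44 and 50.5), against 52 nt (49.5 and 55) in wide pairs. Their downstream elements lay at 15 nt (12 and 19), against 13 nt (11 and 15). The A of the last motif match was at 26 nt from the AG in narrow pairs and at 22 nt in wide pairs. The rule itself sets the sum of these differences, and with 27 and 17 pairs the quartile ranges of the classes overlap at both elements.

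Most wide pairs were minimal. In 3723 of the 6333 (58.8%) each element was a single site. Another 1930 pairs held 3 sites, 569 held 4, 99 held 5, 10 held 6 and 2 held 7. The element means were a median of 39 nt apart (quartiles 37 and 41), and the nearest centres of the elements a median of 37 nt apart (35 and 40). Among pairs of single sites the commonest distance was 38 nt with 432 pairs, next to 421 at 36 nt and 417 at 39 nt, counts too close to be ordered by counting error. At the limits of the rule, 764 pairs lay at 35 to under 36 nt and 708 just outside at 34 to under 35 nt, and 515 lay at 44 to 45 nt and 230 just beyond at up to 46 nt. The last bin inside holds 2 whole-number distances and the bin beyond it 1. Pairs of single sites numbered 216 at 44 nt, 156 at 45 nt and 139 at 46 nt, so the counts run on across both limits. The strands were even, with 3193 pairs on plus and 3140 on minus.

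**Figure D2:**
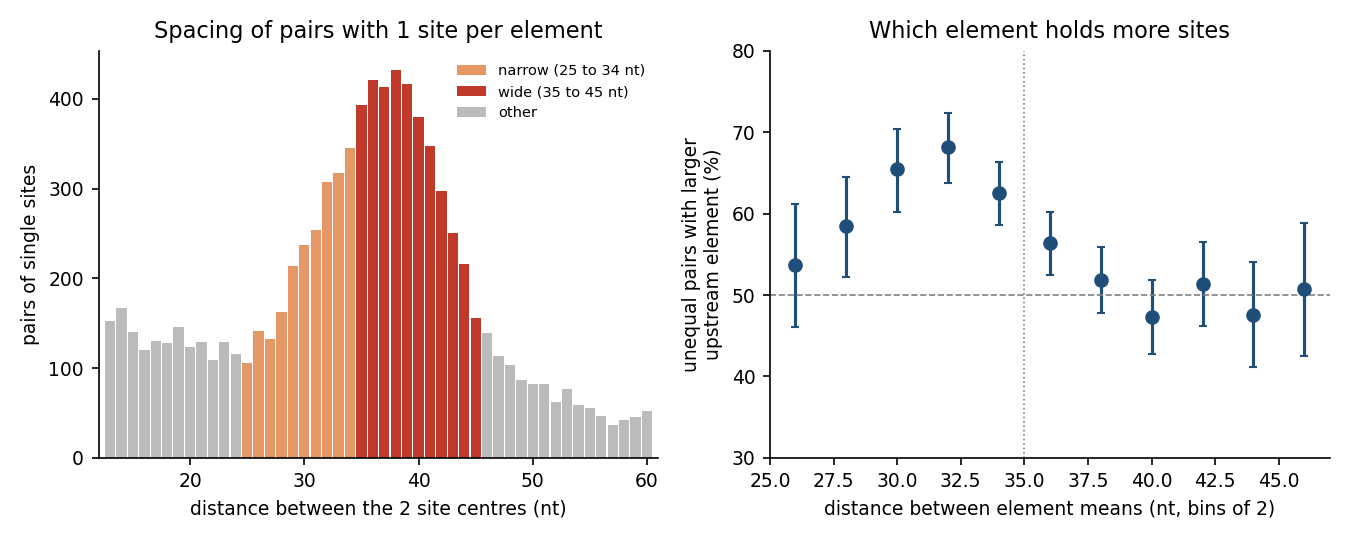
Left, number of pairs made of 2 single sites at each centre-to-centre distance (nt); wide pairs in red, narrow pairs in orange. Right, share of unequal pairs whose upstream element held more sites (%), by distance between element means in bins of 2 nt, with 95% Wilson intervals; the share peaks at 68.2% at 31 to under 33 nt and lies between 47.3% and 56.4% from 35 nt on.

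Upstream and downstream elements of wide pairs were nearly equal in size. There were 8080 sites in upstream and 8001 in downstream elements, 1.01 times as many. Among the 2285 unequal pairs the upstream element was larger in 1180, or 51.6% (49.6% to 53.7%). In narrow pairs the upstream element was larger in 1132 of 1792 unequal pairs, or 63.2% (60.9% to 65.4%). The share was higher in narrow than in wide pairs on 22 of 23 chromosomes, chromosome 20 being the exception. No test was possible for this difference. By chromosome the share ranged from 40% to 63.0% in wide pairs and from 54.3% to 77.1% in narrow pairs.

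The classes differed on the upstream side. An upstream element of 2 or more sites occurred in 34% of narrow and 24.5% of wide pairs, while a downstream element of that size occurred in 23.1% and 23.3%. Within the wide pairs the upstream share was 56.4% at 35 to under 37 nt, 51.9% and 47.3% in the following bins of 2 nt, then 51.4% and 47.6%, and the intervals of neighbouring bins overlap. The contrast between the classes depends on how distance is measured. With the nearest centres 25 to 34 or 35 to 45 nt apart the shares were 59.7% and 50.1%, but with the outermost centres at those distances they were 57.1% and 57.9%. An element of several sites lengthens the outermost distance, so the windows then hold other pairs.

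Elements of 2 or more sites were short. The rule largely sets this, since it joins only centres at most 12 nt apart and sites are 5 nt wide. From first to last base these elements spanned a median of 12 nt on both sides of a wide pair (quartiles 11 and 15). In narrow pairs the medians were 13 nt upstream and 12 nt downstream. Pairs with more than 2 sites made up 46.9% of wide pairs under 38 nt (44.9% to 48.9%) and 35.4% of those at 41 to 45 nt (33.3% to 37.5%). The pairs with the most sites lay in PDCD5 on chromosome 19, from 32587185 to 32587248 with 4 sites upstream and 3 downstream, and in INSIG1 on chromosome 7, from 155308175 to 155308231 with 3 and 4. PDCD5 encodes a protein linked to programmed cell death, and INSIG1 a sensor protein of sterol synthesis. Pairs of 6 sites were found in FOXJ3 (3 and 3), TIMELESS (5 and 1) and FOXK2 (4 and 2). FOXJ3 and FOXK2 encode forkhead transcription factors and TIMELESS a replication fork protein.

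Nearly all wide pairs lay in genes and on the strand of the gene. A total of 6167 pairs, 97.4% (97.0% to 97.7%), had their midpoint in a protein-coding gene, next to 96.7% of all clusters. The strand of the gene was known for 5092 pairs in 1 such gene, and 5075 of them (99.7%) lay on it. Outside protein-coding genes there were 166 pairs. MALAT1, a nuclear long non-coding RNA, held 3, which also fall in its antisense gene TALAM1. The long non-coding RNA CRNDE held 3. MIR17HG, the host of the miR-17 microRNA cluster, held 2. Small nucleolar RNA host genes of the SNHG series accounted for 12 pairs in 9 genes, among them SNHG17 with 3 and SNHG15 with 2. Exons and introns were not distinguished in any of these counts.

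Wide pairs were spread thinly over many genes. Of 7446 protein-coding genes with a cluster, 3192 (42.9%) held a wide pair, and 1769 of these held only 1. At least 5 wide pairs were found in 187 genes, which together held 19.8% of the 6123 pairs assigned to 1 gene, and at least 10 in 14 genes. Genes with a wide pair had a median length of 45.8 kb and genes with other clusters only 29.2 kb. Genes with more clusters held more wide pairs (Spearman's rho 0.64 across 7446 genes, which share 1 list and are not independent). The cluster count includes the wide pairs themselves, so a positive value is largely built in and is only a description.

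UBR4, which encodes a giant E3 ubiquitin ligase, carried the most, 23 wide pairs among 166 clusters (13.9%, 9.41% to 19.9%). The gene spans 19074510 to 19210266 on chromosome 1, minus strand. Its pairs ran from 8.42 to 115 kb after the gene start, with a median of 4058 nt between successive pairs and 378 nt between the closest. Their elements were balanced, with 29 sites upstream and 29 downstream, and 12 of the 23 pairs had 1 site per element. In 11 of the 23 pairs a further cluster lay within 250 nt upstream and in 9 within 250 nt downstream.

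SMCHD1, a chromatin protein of X inactivation and gene silencing, had 16 wide pairs among 71 clusters (22.5%, 14.4% to 33.5%), between positions 2655726 and 2805017 of chromosome 18. A pair of its wide pairs lay 155 nt apart by midpoint, from 2718099 to 2718143 and from 2718254 to 2718307. SETD5, a chromatin regulator with a SET domain, had 14 of 67 clusters, and no SETD5 pair was larger downstream while 4 were larger upstream. HERC1, a giant ubiquitin ligase, had 14 of 91, all past the midpoint of the gene, where 56 of its 77 other clusters also lay. The median position was 70.3% of the gene length for its wide pairs and 70.5% for its other clusters. IGF2R, the mannose 6-phosphate receptor, had 13 of 71. CEP192, a scaffold of the centrosome, had 12 of 52, one with 6 sites, 1 upstream and 5 downstream. PRRC2C, a protein of stress granules, had 12 of 60, and there the downstream element was larger in 6 pairs and the upstream in 1. NBAS, a membrane traffic protein, had 12 of 95. HUWE1, another giant ubiquitin ligase, had 11 of 89, the same number as PRKDC, which was ranked lower for its 108 clusters.

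KDM6A, a histone H3 lysine 27 demethylase, had 11 wide pairs among only 38 clusters (28.9%, 17.0% to 44.8%), above the shares of the other 9 of these 10 genes. Its pairs spanned 88.1 to 238 kb after the gene start, and 10 of the 11 lay past its midpoint, as did 25 of its 27 other clusters. Of these 11, 5 stood within the stretch from 180.6 to 190.2 kb. The 10 genes together held 138 pairs, 2.25% of those assigned. Gene size and cluster number differed widely among them, from 80.5 kb in SETD5 to 782 kb in NBAS.

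**Figure D3:**
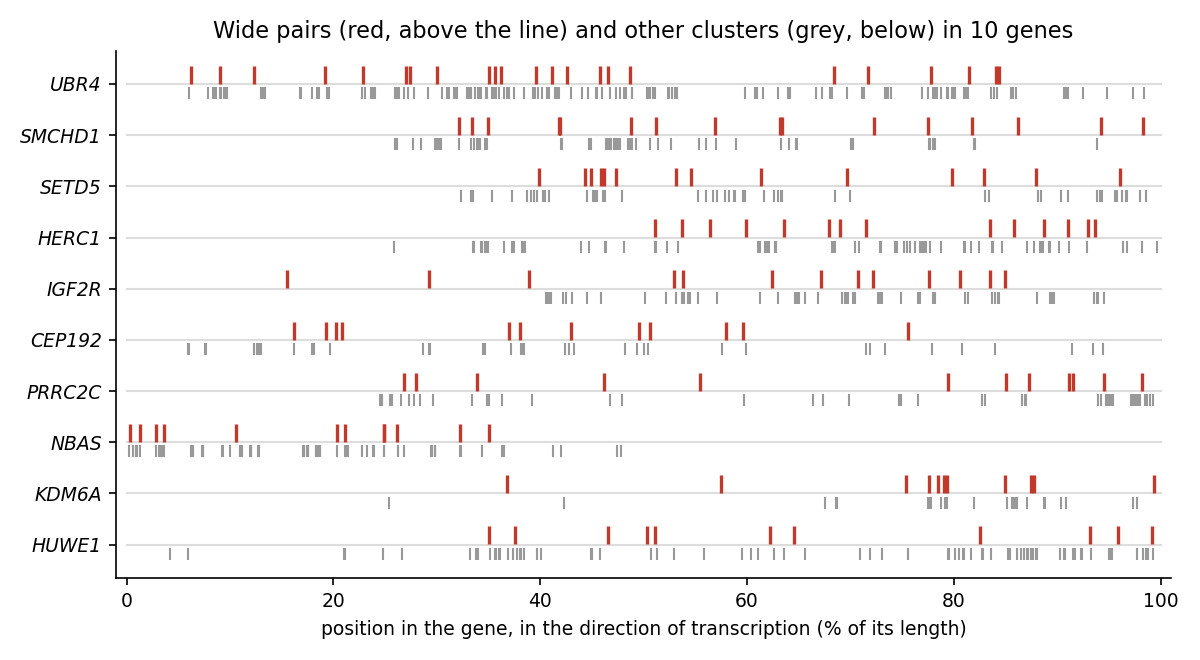
Wide pairs (red) and all other clusters (grey) along the 10 protein-coding genes with the most wide pairs, by position in the gene from start to end (% of gene length). Each tick is 1 cluster; in NBAS all 12 wide pairs lie in the first 35% of the annotated span and in HERC1 all 14 lie between 51.1% and 93.6%.

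Genes with many clusters held different shares of wide pairs, and how far counting error accounts for the spread was not tested. Among 697 genes with at least 20 clusters, a median of 9.52% were wide pairs (quartiles 5.26% and 13.6%), and 40 of these genes had none. NUP214, a nuclear pore gene with 141 clusters, was next to UBR4 in clusters and had 7 wide pairs, 4.96% (2.43% to 9.89%). IARS1, an aminoacyl-tRNA synthetase gene, had 5 of 97 (5.15%, 2.22% to 11.5%). TAF1, a subunit of the TFIID transcription factor, had 0 of 46 clusters, which allows a share of up to 6.52% when the limit is set at 3 counts of the total. At the other end TASOR, of the HUSH silencing complex, and TRAPPC8, of a membrane tethering complex, each had 8 of 22 (36.4%, 19.7% to 57.0%). NUP214, IARS1, TAF1, TASOR and TRAPPC8 were named after their values were seen. In the genes with at least 20 clusters the shares of wide and of narrow pairs showed almost no rank correlation (Spearman's rho -0.0077 over 697 genes of the same list).

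Genes of 3 lists held wide pairs at about the rate of all clusters, 10.3%. Of 26 genes for the U2 particle and branch point recognition, 23 had a cluster and 16 a wide pair, 37 of 409 clusters (9.05%, 6.63% to 12.2%). SF3B3, the partner of SF3B1 in the SF3b complex, had 6, and SF3A3, U2SURP and RBM5 had 4 each, while the SF3B1 gene itself had 3. Of 15 protein-coding genes reported to be mis-spliced with mutant SF3B1, 11 had a cluster and 7 a wide pair, 17 of 152 clusters (11.2%, 7.10% to 17.2%). ENOSF1, SLC3A2 and SERBP1 had 4 each, MAP3K7 had 2 and BRD9, a chromatin remodelling subunit, had 1. The non-coding CRNDE, which is on the same list of 16, is not in these counts, and its 3 pairs are given above. Of 16 erythroid and K562 genes, 12 had a cluster and 10 a wide pair, 32 of 277 clusters (11.6%, 8.30% to 15.9%). TFRC and EPB41, the protein 4.1 gene, had 7 each, and ABL1, a partner in the BCR-ABL1 fusion of this line, had 4. The 9 lymphoid genes held 0 assigned clusters.

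Chromosomes differed in the share of clusters that were wide pairs. It was highest on chromosome 18, 13.0% (11% to 15.3%), and on chromosome 3, 12.5% (11.4% to 13.5%). It was lowest on chromosome 19, 6.46% (5.55% to 7.51%), and on chromosome 22, 7.25% (5.93% to 8.84%). The median over the 23 chromosomes was 10.3%.

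Wide pairs became more frequent along genes. The first 10% of the gene length held 255 of the 6123 assigned pairs (4.16%) and the last 10% held 881 (14.4%), a ratio of 3.45 (3.01 to 3.97). In steps of 10% the number rose throughout, last from 880 to 881. The median pair lay at 0.631 of the gene length, next to 0.625 for narrow pairs and 0.622 for single sites. Narrow pairs gave a ratio of 3.79 (3.17 to 4.53) and single sites one of 2.71 (2.57 to 2.86), so the gradient was steeper for both kinds of pair. In genes with a wide pair, a set chosen by these pairs, single sites gave 2.88 (2.7 to 3.08), and its interval overlaps that of the wide pairs. In genes under 50 kb the ratio for wide pairs was 2.69 and in longer genes 4.13.

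Close to the gene start wide pairs were few. Within 1 kb after the start lay 72 wide pairs, 1.18% (0.935% to 1.48%), next to 1.25% of narrow pairs and 2.21% of single sites (2.06% to 2.36%). Within 1 kb of the gene end lay 3.20% of wide pairs (2.79% to 3.67%), 3.32% of narrow pairs and 2.90% of single sites (2.73% to 3.07%). Counted only in genes with a wide pair, a set chosen by these pairs, the other classes were scarcer in both windows. Single sites then gave 1.62% at the start (1.47% to 1.79%) and 2.11% at the end (1.94% to 2.29%). Narrow pairs gave 0.842% and 1.92%. These windows use the outermost RefSeq span of a gene. In NBAS the last cluster of any kind lay at 47.9% of that span, so its wide pairs, all in the first 35%, followed the other clusters of the gene.

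**Figure D4:**
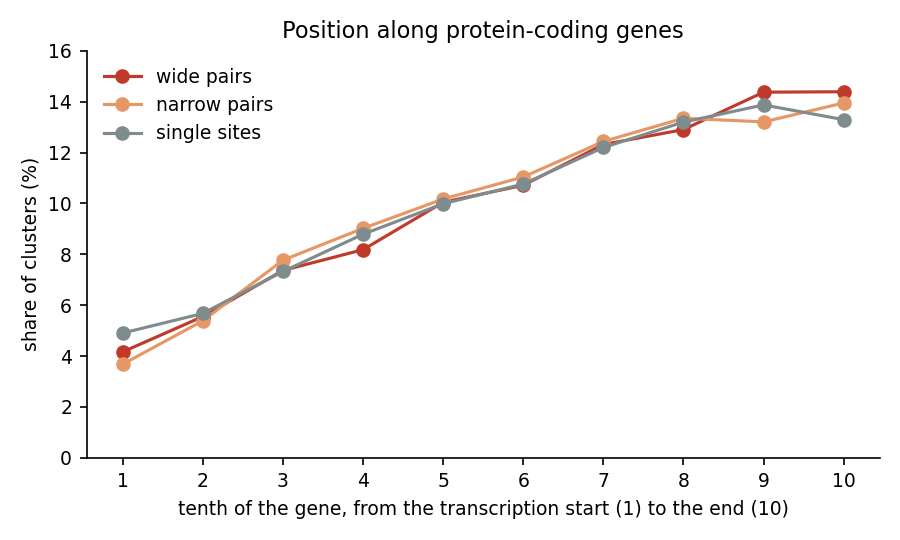
Share of wide pairs, narrow pairs and single sites (% of each class) in each step of 10% of the length of protein-coding genes, from start (1) to end (10). The 3 lines rise together, except for single sites at the last step and narrow pairs at the step before; wide pairs go from 4.16% to 14.4%.

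The next cluster lay more often downstream than upstream of a wide pair. The rule leaves no other site within 60 nt, and distances beyond that were not used by it. The nearest cluster on the strand was downstream for 3492 pairs and upstream for 2829, a downstream share of 55.2% (54.0% to 56.5%). For single sites the share was 48.3% (47.8% to 48.8%), and for narrow pairs it was 55.4% (53.9% to 56.9%). The share for single sites is not independent of that for pairs, since each adjacency is counted from both sides. Within 250 nt, 1263 wide pairs had a single site downstream, and those same 1263 single sites had a wide pair upstream. The median distance from a wide pair was 1226 nt downstream and 1917 nt upstream.

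The asymmetry was concentrated at short range. A cluster lay within 250 nt downstream of 1906 wide pairs (30.1%, 29.0% to 31.2%) and within 250 nt upstream of 1234 (19.5%, 18.5% to 20.5%), and 528 pairs had both. The downstream number was the larger on all 23 chromosomes, with ratios from 1.05 on chromosome 13 to 2.35 on chromosome 15. In bins of 20 nt the downstream count was highest at 121 to 140 nt, 294 pairs against 171 upstream. At 261 to 280 nt there were 68 downstream and 76 upstream, and farther out neither side was higher throughout. Of the 10 genes with the most wide pairs, SMCHD1 (9 downstream and 5 upstream), SETD5 (8 and 4), NBAS (7 and 3), HUWE1 (5 and 1) and IGF2R (2 and 1) had more pairs with a close cluster downstream. The numbers were equal in CEP192 (3 and 3), HERC1 and KDM6A (2 and 2 in each) and lower downstream in UBR4 (9 and 11) and PRRC2C (1 and 2).

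**Figure D5:**
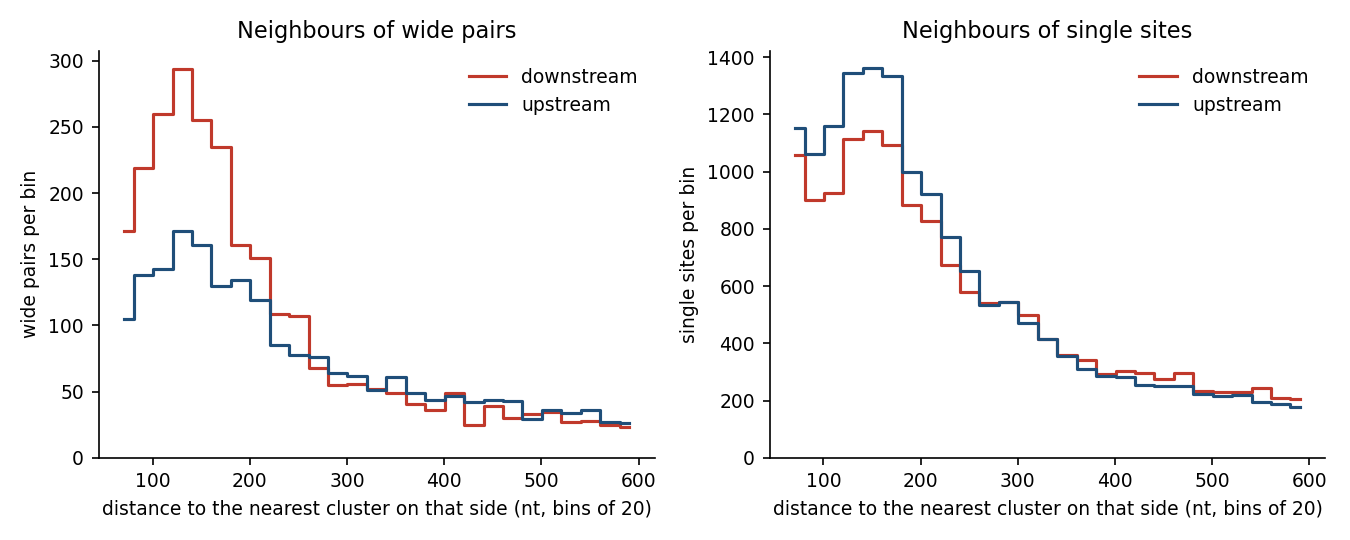
Number of wide pairs (left) and single sites (right) whose nearest cluster downstream (red) or upstream (blue) lies at each distance, in bins of 20 nt. For wide pairs the downstream line is above the upstream line up to 260 nt, peaking at 294 pairs at 121 to 140 nt. For single sites the upstream line is above over the same range. The panels are not independent, since a wide pair next to a single site is counted in both.

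The close downstream neighbour was usually a single site. Within 250 nt downstream it was a single site for 1263 of 1906 wide pairs (66.3%, 64.1% to 68.4%), another wide pair for 126 (6.61%) and a narrow pair for 75 (3.93%). Within 250 nt upstream it was a single site for 61.2%, a wide pair for 10.2% (8.64% to 12.0%) and a narrow pair for 6.48%. The 126 neighbouring wide pairs are the same on both sides, so these percentages differ through their totals. Among all clusters single sites made up 63.3%.

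Larger pairs had close neighbours more often. A cluster lay within 250 nt downstream of 26.5% of wide pairs with 2 sites (25.1% to 28.0%), 32.6% of those with 3 and 42.5% of those with 4 or more (38.8% to 46.2%). Upstream the values were 17.8%, 19.2% and 29.4%. The spacing of the pair made little difference, with 30.8% at 35 to under 38 nt, 28.6% at 38 to under 41 nt and 30.9% at 41 to 45 nt.

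Successive wide pairs of a gene were usually kilobases apart. Midpoints were a median of 6738 nt apart over 2931 such steps (quartiles 2420 and 15720 nt). Only 202 steps (6.89%) were at most 500 nt. SMCHD1 had a median step of 6634 nt, UBR4 4058 nt and SETD5 3559 nt.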

How the data were processed

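The deposited list gives positions, a region number and a score, and per the file headers it merges sites 5 nt wide that every replicate of one or the other condition reproduced. The deposited score was 0 in all 96852 rows, so sites could not be ranked. The submitters' processing notes name STAR 2.7.3a and 2.6.1b, UMI-tools 1.0.0, bedtools 2.27.1, FastQC 0.11.8 and the builds GRCh38.p10 and GRCh38.p12. The site caller is not given in the sources used here. Merging and the demand for reproducibility can remove weak or adjacent contacts, which affects element sizes and neighbours.

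Positions were made 1-based. Upstream and downstream follow the strand of the site. Gene spans came from RefSeq (GRCh38.p14) and strands from its table of gene starts, which covers 79.0% of 20056 protein-coding genes. A cluster was assigned by its midpoint when 1 such gene held it, genes known to lie on the other strand left out. Named genes are the 10 with the most wide pairs (ties by share of clusters), up to 4 leading genes per list and the 5 pairs with the most sites; others were named after their values were seen. Members and lists were chosen with earlier results of these data known. Grouping was tested on simulated data and returned every simulated pair. These data held only well separated pairs and single sites, so the grouping of crowded clusters was not checked. Python 3.11.15, NumPy 2.4.6, pandas 2.3.3, SciPy 1.17.1 and Matplotlib 3.10.9 were used. The planned measurement against annotated splice sites was not made, since exons were not used here. Some members of the gene lists are not reported here by name.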

Additional observations from a re-analysis of the deposited data

How the results depend on the processing

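The number of wide pairs lay between 5322 (spacing of 36 to 44 nt) and 7271 (34 to 46 nt) over 8 alternatives, within 1.5 times of 6333. The share of unequal pairs with the larger element upstream lay between 50.5% and 52.1% with other element links, on either strand alone and without the 10 genes with the most wide pairs. With the window set on the nearest centres it was 50.1% and on the outermost centres 57.9%, both chosen after seeing the data. Between the last and the first 10% of genes the ratio was 2.69 in genes under 50 kb and 4.13 in longer genes, and 3.48 without the 10 genes with the most wide pairs. Counting genes of every biotype raised the share inside a gene to 99.7%, since more genes were counted. The share with the nearest cluster downstream lay between 54.9% and 55.4%. Each of the 10 named genes kept its count within 1.5 times with elements linked at 10 or 15 nt. No paired analysis was possible because the sites of all replicates were merged into 1 list, which also kept single replicates from being left out. The depth is unknown, so the absence of a pair from the list sets no limit on binding. Distances to annotated splice sites were not run.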
